A study of Macaca mulatta with 161 samples.

Results

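The genes described here are the aminoacyl-tRNA synthetases, the enzymes that load each amino acid onto its transfer RNA. They were taken by name from a list of 36 genes, and 33 of these have a row in the authors' table of 16049 genes. CARS2, FARSB and SARS have no row under their symbols and were not analysed here. The 33 genes comprise 8 synthetases of the cytosolic multisynthetase complex, 10 cytosolic synthetases outside it and 15 mitochondrial synthetases.

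The cells are 161 single inner cells of rhesus monkey (Macaca mulatta) blastocysts, and the series asks about pluripotency before implantation. The embryos came from eggs collected after hormone stimulation, fertilised in vitro and grown in HECM-9 medium with serum, and no genotype or treatment sets the groups apart. PKH26, a membrane dye, marked the outer cells, and cells without it were taken as inner cells. The 4 groups are the early blastocyst (44 cells, about embryonic day 5), the middle blastocyst (39 cells, about day 5.5), the late blastocyst (52 cells, about day 6) and the hatching blastocyst (26 cells, about day 7). The labels name no embryo behind a cell, so each stage counts as 1 sample, with cells that cannot stand in for replicates. For this reason differences between stages and classes carry no test, and every one below describes these cells without a replicate check.

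Each synthetase recognises 1 amino acid and the matching transfer RNAs, and the charged transfer RNA is then brought to the ribosome by an elongation factor. Most animals keep separate nuclear genes for the cytosol and for the mitochondrion, the latter marked by a 2 at the end of the name, while GARS and KARS serve both compartments. EPRS joins the enzymes for glutamate and proline in 1 protein. The multisynthetase complex is held together by the scaffold proteins AIMP1, AIMP2 and EEF1E1. When uncharged transfer RNA builds up, the kinase GCN2 (EIF2AK4) slows translation and the factor ATF4 is made, and many cytosolic synthetase genes are known ATF4 targets.

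Levels are given as FPKM, which scales reads to transcript length and to the reads of the cell, so that levels of different genes can be compared. Differences are between means over cells of log2(FPKM + 1), a scale that understates the difference of genes with low values. A difference of at least 1 log2 unit is called past the threshold, and the same count is given over the 9781 genes of the table with a mean FPKM of at least 1. All 33 synthetases passed that minimum.

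The series gave a median of 11.5 M recovered reads per cell (range 3.03 to 19.4), with stage medians of 10.8 to 12.5. A synthetase had a median of between 323 reads per cell (MARS2) and 8709 reads (WARS). Epiblast (EPI) and primitive endoderm (PE) classes were rebuilt by clustering within the late and hatching stages, without the synthetases or any listed gene. This gave 23 EPI-like and 29 PE-like late cells, and 19 EPI-like and 7 PE-like hatching cells. Of the late PE-like cells, 18 kept that name with fewer principal components and 24 by marker score. By that score cells L48, L53 and L61 were EPI-like, and cells L13 and L59 were closest to trophectoderm. Early and middle cells were not clustered and carry no class. For trophectoderm markers (10 of 11 with a row), log2(FPKM + 1) was averaged over the markers in each cell. The median cell lay at 3.35, 3.53, 3.52 and 3.41 in the 4 stages, and 1 late cell reached 7.70. Of 5 cumulus and blood markers, 4 have a row, and their median cell lay at 0.00 in the first 3 stages and at 0.56 in the hatching stage. Early cell 9 stood apart: its mean synthetase level was 3.53 log2 units, against 4.84 in the next lowest early cell. The 7 hatching PE-like cells carry title numbers 1 to 18, a range that holds only 5 of the EPI-like cells.

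The order of the levels put most cytosolic enzymes above most mitochondrial ones. WARS, the tryptophan enzyme, had the highest mean FPKM over all cells (303), followed by KARS (212), FARSA (176), RARS (164) and MARS (144). The lowest were MARS2 (12.2), VARS2 (14.7) and WARS2 (15.9), all mitochondrial. LARS was the lowest cytosolic gene at 35.4, and TARS2 (69.4) and SARS2 (77.8) were the highest mitochondrial genes. Between cells the levels of KARS and RARS overlapped: in the early stage KARS ran from 111 to 331 FPKM and RARS from 52.2 to 405. MARS2, the mitochondrial methionine enzyme, was uneven between cells. Of the early cells, 35 of 44 had an FPKM of at least 1 (79.5%, exact Clopper-Pearson 95% interval 64.7 to 90.2%) and of the hatching cells 11 of 26 (42.3%, 23.4 to 63.1%). Both intervals cover counting error alone, and cells from 1 embryo would make them too narrow.

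**Figure D1:**
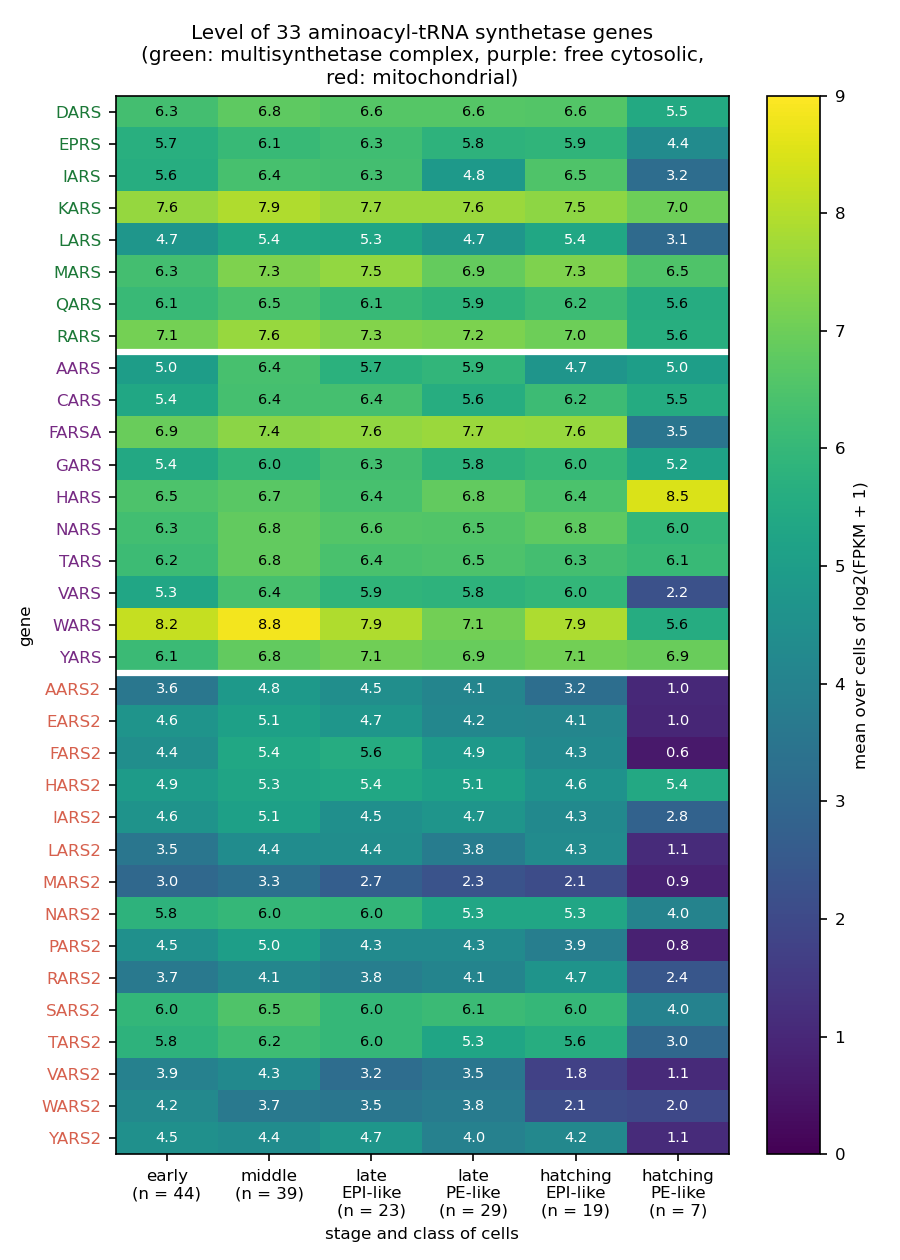
Mean over cells of log2(FPKM + 1) for the 33 synthetases (rows, ordered by role) in 6 groups of cells (columns, with the number of cells), as colour and as the printed value. The mitochondrial genes (red names) lie below most cytosolic ones, and in hatching PE-like cells FARSA (3.5) and VARS (2.2) are low while HARS (8.5) is the highest value of its column.

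In the middle blastocyst, 31 of the 33 synthetases were higher than in the early blastocyst, where 56.4% of all genes were higher. All 18 cytosolic genes were among them, by 0.21 (HARS) to 1.35 (AARS) log2 units. Their median difference was 0.60, against 0.47 for the mitochondrial genes and 0.08 for all genes. AARS, AARS2 and VARS passed 1 log2 unit and no synthetase passed -1, while 3.06% of all genes lay past the threshold upward and 3.61% downward. WARS2 (-0.59) and YARS2 (-0.13) were the 2 lower synthetases.

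AARS, the cytosolic alanine enzyme, had a lowest, median and highest FPKM of 3.26, 34 and 109 in early cells and of 22.4, 96.5 and 244 in middle cells. Its mitochondrial partner AARS2 had 0.0378, 13.8 and 50.7 in early cells and 0.416, 34.8 and 106 in middle cells, a difference of 1.27. The middle cells were the higher ones for both genes, and the 2 stages overlapped. VARS, the valine enzyme, had medians of 47.1 and 88.6 (difference 1.05), and CARS, the cysteine enzyme, of 43 and 89.0 (difference 0.995, just under the threshold). MARS (0.94), FARS2 (0.92) and LARS2 (0.84) came next. The summed FPKM of the 18 cytosolic genes had a median of 1695 per early cell (range 963 to 2662) and 2540.4 per middle cell (1280.5 to 3577). The difference was also found in both ranges of title numbers: the median over all synthetases was 0.70 among lower-numbered and 0.38 among higher-numbered cells, with 31 and 25 genes higher. With every cell rescaled to the same FPKM sum, the median of all genes was 0.20 instead of 0.08 and the shares past the threshold were 6.01% upward and 2.17% downward. The synthetases then lay 0.50 above the median of all genes, against 0.42 before rescaling, and YARS2 lay above 0.

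Other targets of ATF4 were also higher in middle than in early cells. Of 24 genes on this list that passed the FPKM minimum, 21 were higher (56.4% of all genes) and 8 were past 1 log2 unit (3.06%), with a median of 0.72. PSAT1, a serine synthesis enzyme, differed by 2.19, the arginine and lysine transporter SLC7A1 by 1.64, the asparagine synthetase ASNS by 1.58 and the glutamine transporter SLC1A5 by 1.48. Within the middle stage, higher-numbered cells differed from lower-numbered ones by -0.97 in PSAT1, -1.98 in SLC7A1, -1.39 in ASNS and 1.46 in SLC1A5. For the last 3 genes this is of a size near the difference between the stages. ASNS had an FPKM of 0 to 112 (median 9.43) in early cells and of 0.340 to 230 (median 37.1) in middle cells. ATF4 itself had medians of 37.3 and 63.9 (difference 0.41). DDIT3, another stress-induced factor on the list, differed by -0.47. Of 13 sensors and regulators of this stress response, 6 were higher, 0 passed the threshold either way, and the largest difference was that of IMPACT (0.97), an inhibitor of GCN2. The scaffold genes lay on the other side: AIMP1 differed by -0.65, AIMP2 by -0.08 and EEF1E1 by -0.20. XPOT, the exporter of transfer RNA from the nucleus, differed by 1.08. The list was chosen with earlier results of these data known, so it gives no independent support to a direction.

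**Figure D2:**
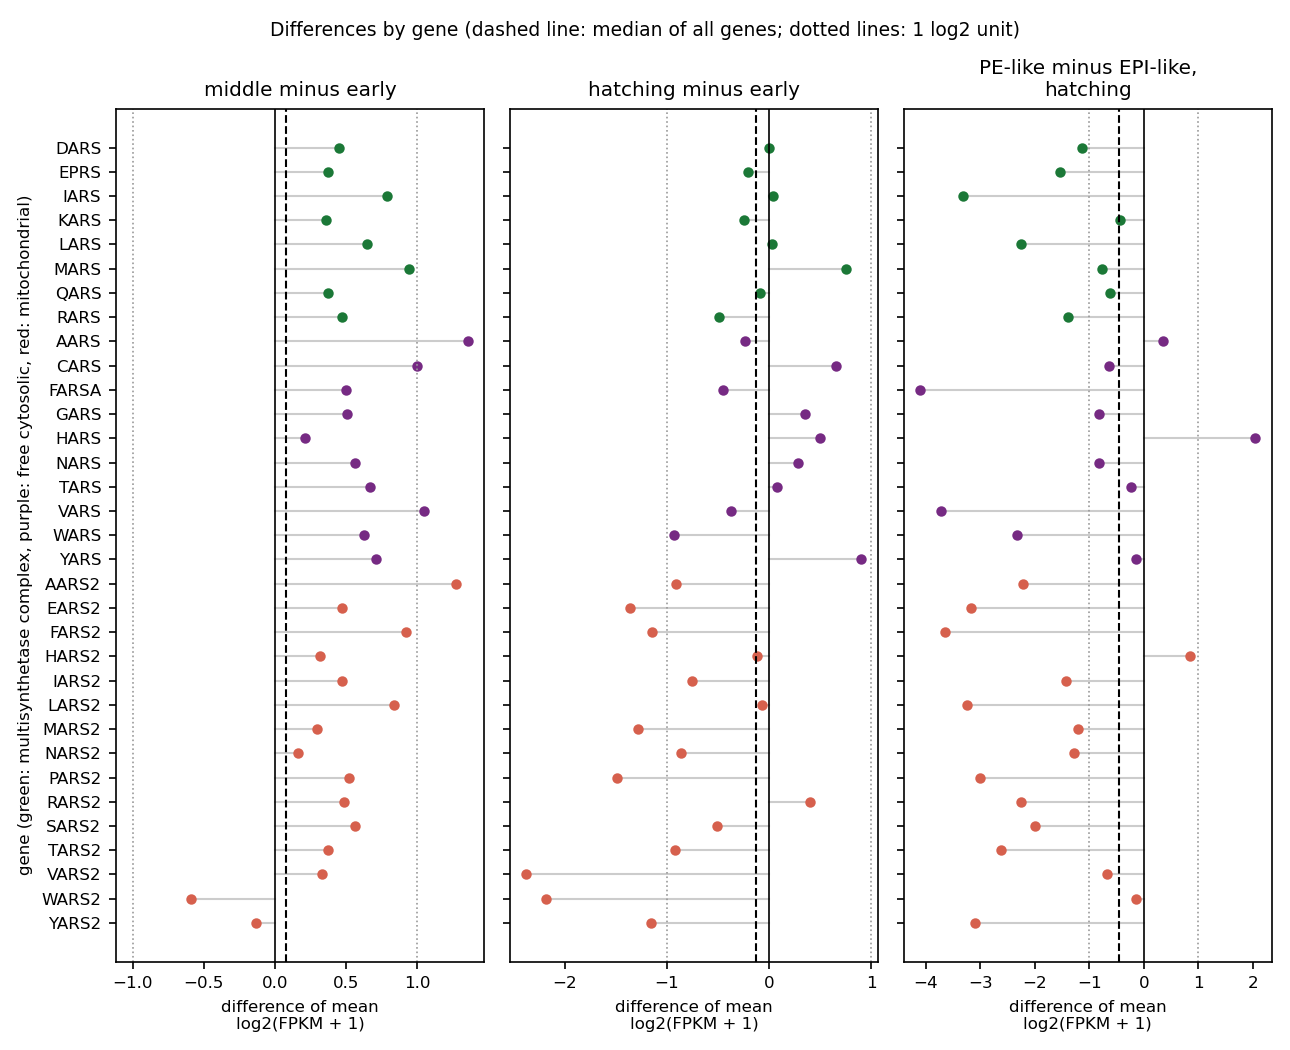
Difference of mean log2(FPKM + 1) for each synthetase (rows, coloured by role) in 3 comparisons, with the median of all genes as a dashed line and 1 log2 unit as dotted lines; the horizontal scales differ. In the middle stage 31 of 33 points lie right of 0, in the hatching stage the 7 points past -1 are mitochondrial, and between the hatching classes FARSA (-4.10) and HARS (2.05) mark the ends.

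From the middle to the late blastocyst 29 of 33 synthetases were lower, with 54.2% of all genes lower, and the median difference was -0.37 against -0.05 for all genes. WARS alone passed the threshold (-1.37), while 5.82% of all genes did so downward and 3.95% upward. The median was -0.26 among lower-numbered cells (27 lower) and -0.18 among higher-numbered cells (25 lower), with 3 synthetases past -1 in each. WARS had an FPKM of 132 to 942 (median 498) in middle cells and of 59.1 to 425 (median 185) in late cells. Late cells were the lower ones and the stages overlapped. The WARS difference was -0.89 in late EPI-like and -1.75 in late PE-like cells, both against the same middle cells. IARS (-0.90), VARS2 (-0.90), MARS2 (-0.86), PARS2 (-0.74) and EARS2 (-0.70) followed, and FARSA (0.17), YARS (0.12) and GARS (0.09) were slightly higher.

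WARS is known as an interferon-induced gene, and so a list of such genes was set beside it. Of 8 that passed the FPKM minimum, 7 were lower in late than in middle cells, with 54.2% of all genes lower. Past -1 were 3 (5.82% of all genes): the factors IRF1 (-1.83) and IRF9 (-1.78) and the peptide transporter TAP1 (-1.63). Against the same middle cells, IRF9 differed by -2.94 in late EPI-like and by -0.87 in late PE-like cells. IRF1 differed by -2.31 and -1.45 in these classes, and TAP1 by -1.99 and -1.34. These 3 genes had the larger negative difference in EPI-like cells, and WARS in PE-like cells. B2M, the light chain of class I molecules, was higher by 0.34 in late than in middle cells. In the step before, 5 of the 8 had been higher, WARS by 0.63, IRF1 by 1.00 and IRF9 by 1.01, while PSMB9, an immunoproteasome subunit, differed by -2.31. WARS overlaps the coding gene WDR25 in the RefSeq annotation of T2T-MMU8v2.0, and 7 other synthetases also overlap a coding gene. Whether counting used the strand is not given in the sources used here, so a part of their reads may belong to those neighbours.

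Between the early and the hatching blastocyst the 2 compartments differed. Of the 15 mitochondrial synthetases 14 were lower in hatching cells, with 56.2% of all genes lower, and 7 passed -1. No cytosolic gene passed the threshold in either direction. Over all genes 16.2% lay past the threshold downward and 11.3% upward. The median difference was -0.92 for the mitochondrial genes, -0.04 for the complex, 0.18 for the other cytosolic genes and -0.12 for all genes. The summed FPKM of the mitochondrial genes had a median of 483 per early cell (349 to 700) and 376 per hatching cell (80.3 to 657).

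VARS2, the mitochondrial valine enzyme, had an FPKM of 0.264 to 50.6 (median 17.6) in early cells and of 0 to 41.1 (median 1.01) in hatching cells, a difference of -2.37. WARS2, the mitochondrial tryptophan enzyme, had 1.80 to 69.2 (median 20.8) and 0.0224 to 23.5 (median 3.65), a difference of -2.18. Hatching cells were the lower ones for both, with overlap. VARS2 had an FPKM of at least 1 in 43 of 44 early and 13 of 26 hatching cells. The other 5 past the threshold were PARS2 (-1.49), EARS2 (-1.36), MARS2 (-1.28), YARS2 (-1.16) and FARS2 (-1.15), for proline, glutamate, methionine, tyrosine and phenylalanine. RARS2, for arginine, was the mitochondrial exception at 0.40. The highest cytosolic genes were YARS (0.91), MARS (0.76), CARS (0.65), HARS (0.50) and GARS (0.35), and the lowest was WARS (-0.93). MARS overlaps DDIT3 in the annotation, which differed by -1.03 in hatching cells.

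The mitochondrial difference was smaller when only the 19 EPI-like hatching cells were set against the early cells. The mitochondrial median was then -0.35, with 12 of 15 genes lower (50.2% of all genes), and the cytosolic median was 0.40, with 13 of 18 higher (49.8% of all genes). VARS2 (-2.19) and WARS2 (-2.14) remained past -1, and RARS2 (1.01) was past 1. The shares over all genes were 14% downward and 13.7% upward. Among higher-numbered cells of both stages the mitochondrial median was -0.47, and among lower-numbered cells, which hold all PE-like ones, -1.63. The HARS difference changed sign between these ranges, at -0.47 and 1.55.

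**Figure D3:**
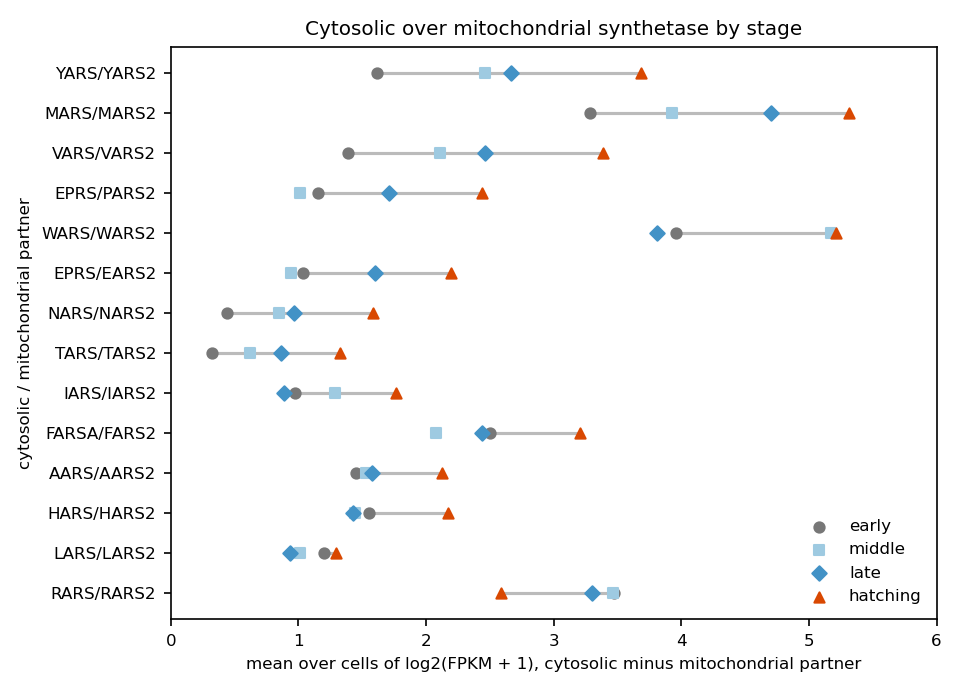
For 14 pairs of cytosolic and mitochondrial synthetases for the same amino acid (rows), the mean over cells of the difference in log2(FPKM + 1), by stage. Hatching (triangles) lies right of early (circles) in 13 pairs, and RARS/RARS2 is the exception.

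The same appeared pair by pair. For 14 pairs that serve the same amino acid, the cytosolic partner had the higher level in all 4 stages. The gap was wider in hatching than in early cells for 13 pairs, by a median of 1.07 log2 units. It went from 1.62 to 3.68 for YARS and YARS2, from 3.28 to 5.32 for MARS and MARS2 and from 1.39 to 3.39 for VARS and VARS2. RARS and RARS2 went the other way, from 3.47 to 2.59. With EPI-like hatching cells alone, 11 of the 14 gaps were wider than in early cells, by a median of 0.86 over all pairs, and those of AARS, LARS and RARS were narrower. EPRS enters 2 of these pairs, with EARS2 and with PARS2.

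Other genes of mitochondrial translation were also lower in hatching than in early cells. Of 17 that passed the FPKM minimum 13 were lower (56.2% of all genes) and 5 past -1 (16.2%), with a median of -0.63. With EPI-like hatching cells alone the median was -0.17, with 11 lower and 4 past -1. TRMU (-1.77), which modifies mitochondrial transfer RNA, MTFMT (-1.61), which formylates the initiator, and the release factor MTRF1 (-1.58) had the largest negative differences. GTPBP3, a further modifying enzyme, was higher by 1.74. Of the other ATF4 targets, 18 of 24 were higher and 12 past 1 (11.3% of all genes), led by PHGDH (5.00), SLC38A2 (4.33) and PSAT1 (3.42). Within the early stage, higher-numbered cells differed from lower-numbered ones by 4.03 in SLC38A2, 0.23 in PHGDH and -0.91 in PSAT1. Within the hatching stage these values were -0.47, 2.87 and 2.44. Between early and hatching cells, ASNS was higher by 2.18 and ATF4 by 0.33. AIMP1 (-1.001), AIMP2 (-1.53) and EEF1E1 (-0.17) were lower. Of the 7 listed genes of cytosolic elongation, which include the EEF2 kinase EEF2K, EIF5A passed -1 (-2.10) and the median was -0.06.

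From late to hatching cells the mitochondrial median was -0.72, and this value differed between the ranges of title numbers. Among lower-numbered cells, which hold all hatching PE-like ones, it was -1.77 with 15 of 15 genes lower, and among higher-numbered cells -0.11 with 9 of 15 lower. The median over all synthetases was -1.06 and -0.09 in these ranges. With all cells, of the 33 synthetases 27 were lower, with 59% of all genes lower, and 8 passed -1 (FARS2 -1.88, VARS2 -1.81, AARS2 -1.60, WARS2 -1.59, PARS2 -1.26, EARS2 -1.13, FARSA -1.12 and AARS -1.05). Over all genes 9.87% passed downward and 7.26% upward. With median-of-ratios scaling these shares were 7.74% and 8.35%, and 6 synthetases passed -1. Within EPI-like cells, 23 of 33 were lower (51.9% of all genes) and 5 passed -1, namely VARS2 (-1.44), WARS2 (-1.43), FARS2 (-1.29), AARS2 (-1.21) and AARS (-1.05). There 7.51% of all genes passed downward and 8.34% upward, the mitochondrial median was -0.59 and the cytosolic one -0.03. Within PE-like cells 22 synthetases passed -1 and HARS passed 1, with 30.1% of all genes past the threshold downward and 11.8% upward. Median-of-ratios scaling gave 21.7% and 17.2% there, and 18 synthetases past -1.

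Between the classes of the late blastocyst IARS, the isoleucine enzyme, was the 1 synthetase past the threshold, at -1.48 in PE-like against EPI-like cells. It had an FPKM of 26.9 to 153 (median 95.5) in EPI-like and of 0.419 to 106 (median 32.4) in PE-like cells, with overlap. Of the 33 genes 23 were lower in PE-like cells (51.5% of all genes), with a median of -0.20, and 9.03% of all genes passed the threshold downward and 8.58% upward. WARS (-0.86), YARS2 (-0.75), CARS (-0.74), FARS2 (-0.70) and TARS2 (-0.70) followed, and HARS (0.43) was the highest. With classes from 5 principal components, under which 18 of the 29 PE-like cells keep that name, 3 synthetases passed -1 and the median was -0.32.

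**Figure D4:**
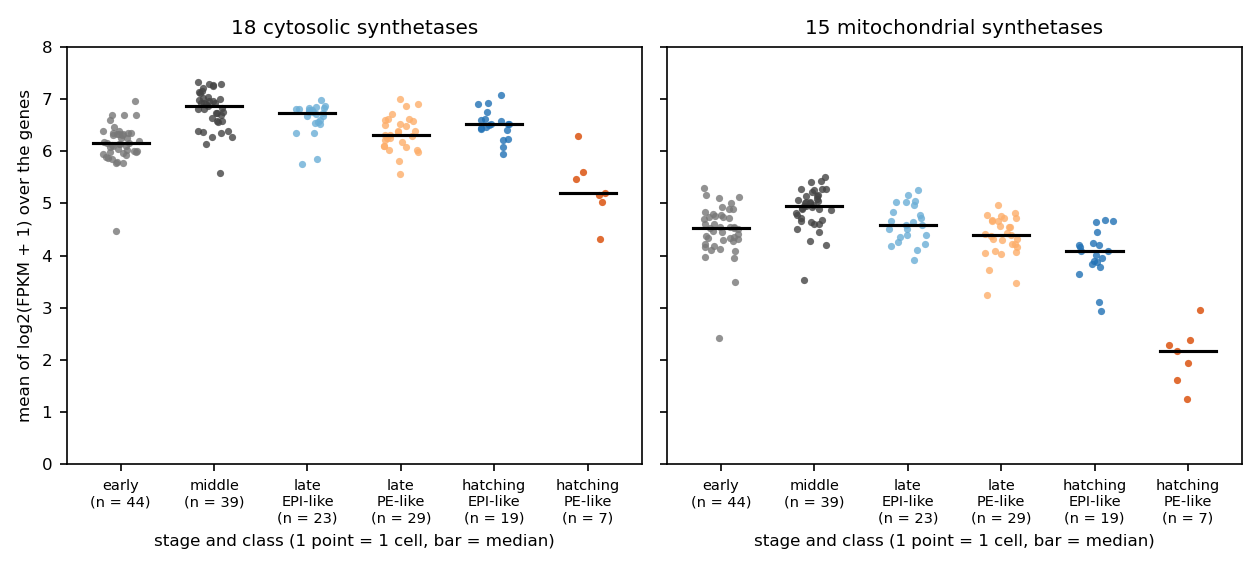
Mean log2(FPKM + 1) of the 18 cytosolic (left) and 15 mitochondrial synthetases (right) in each cell, by stage and class, with the median as a bar. The 7 hatching PE-like cells lie between 1.26 and 2.95 on the right, and the hatching EPI-like cells between 2.94 and 4.69, so that they barely overlap; 1 early cell stands apart in both panels.

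In the hatching blastocyst the PE-like cells had far lower levels of most synthetases than the EPI-like cells, and a higher level of HARS. Of the 33 genes 30 were lower, with 65.1% of all genes lower, and 20 passed -1 (33.7% of all genes), while HARS alone passed 1 (14.2%). The median was -1.39 over the synthetases, -2.21 over the mitochondrial ones, -1.27 over the complex, -0.73 over the other cytosolic genes and -0.45 over all genes. A PE-like cell had 17 to 26 synthetases at an FPKM of at least 1 (median 24), and an EPI-like cell 26 to 33 (median 31).

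FARSA, the catalytic subunit of the cytosolic phenylalanine enzyme, had an FPKM of 0.607 to 77.0 (median 11.5) in the 7 PE-like cells and of 74.4 to 360 (median 181) in the 19 EPI-like cells, a difference of -4.10. Of the PE-like cells 6 lay below every EPI-like cell. VARS had 0.227 to 30.5 (median 0.846) and 28.5 to 149 (median 68.6), a difference of -3.72, with 5 PE-like cells below every EPI-like cell. IARS had 0.743 to 35.5 (median 8.74) and 49.4 to 214 (median 90.6), a difference of -3.31. It was the 1 synthetase of 33 with every PE-like cell below every EPI-like cell, which held for 2.0% of all genes (196 of 9781). For a further 138 genes, none of them a synthetase, every PE-like cell lay above. Among late cells, FARSA and VARS had differed by 0.10 and -0.08 between the classes. In the mitochondrion FARS2 (-3.64), LARS2 (-3.24), EARS2 (-3.17), YARS2 (-3.10) and PARS2 (-3.01) were the lowest, and FARS2 reached an FPKM of 1 in 1 of the 7 PE-like cells. WARS lay at -2.32, with a median of 77.6 against 222.

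HARS, the cytosolic histidine enzyme, had an FPKM of 230 to 749 (median 334) in PE-like and of 30.2 to 237 (median 81.1) in EPI-like cells. All 7 PE-like cells lay above the EPI-like median and 6 above every EPI-like cell, a difference of 2.05. HARS2, its mitochondrial relative, was the 1 mitochondrial gene with a higher mean level, with medians of 40.8 against 30.5 and a difference of 0.85. Because HARS and HARS2 are similar in sequence, reads may have been split between them in counting. AARS (0.36), WARS2 (-0.13), YARS (-0.14), TARS (-0.24) and KARS (-0.43) differed by less than 0.5. With median-of-ratios scaling the median of all genes moved from -0.45 to -0.15, the shares past the threshold to 25.4% downward and 20.6% upward, and 15 synthetases passed -1 while 2 passed 1. Of the genes named as close to 0, AARS, TARS, KARS, YARS and WARS2 changed sign under another pseudocount, scaling or summary of cells, whereas FARSA stayed between -4.46 and -3.00 and VARS between -5.24 and -2.08.

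**Figure D5:**
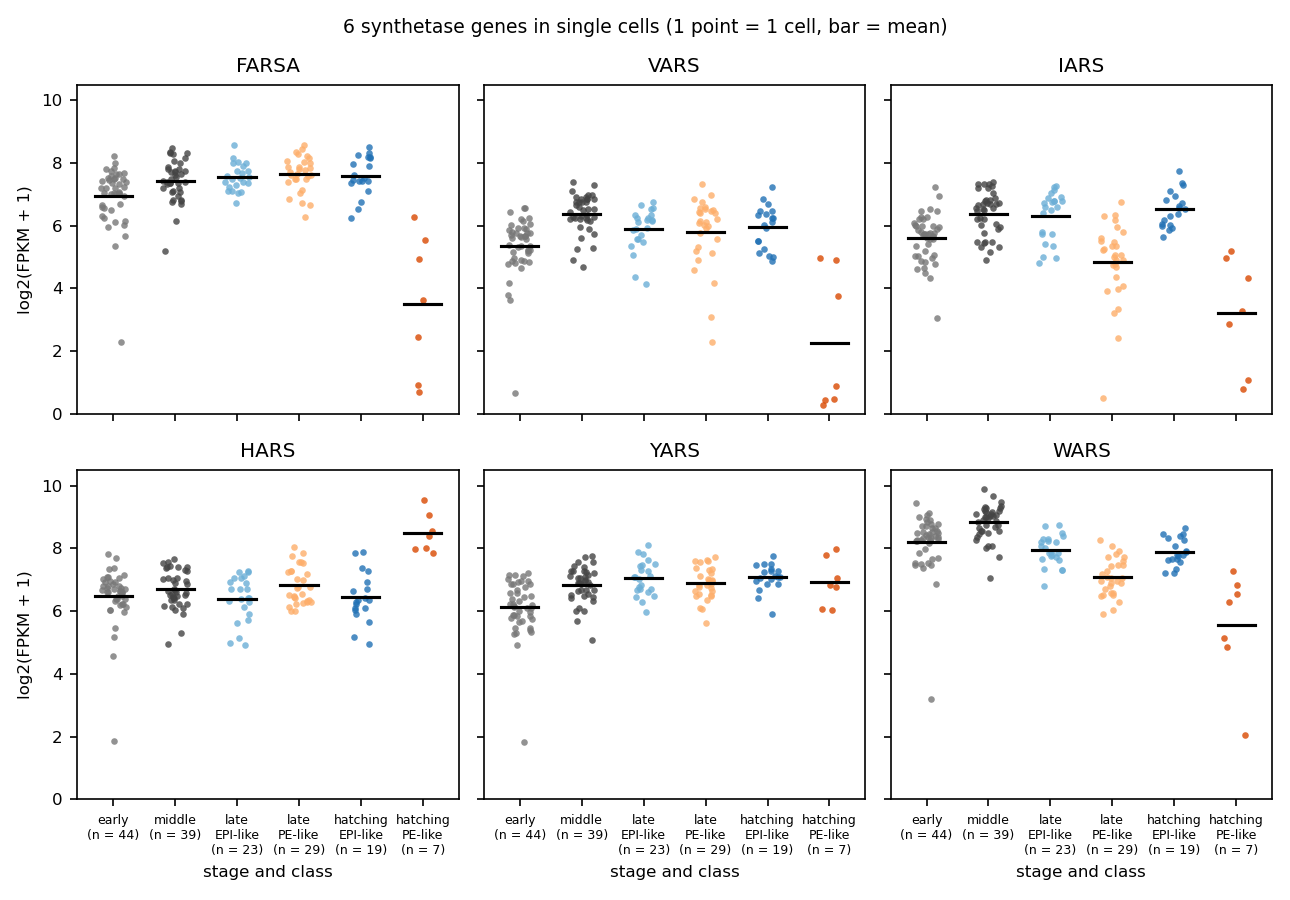
log2(FPKM + 1) of 6 cytosolic synthetases in each cell, by stage and class, with the mean as a bar. In hatching PE-like cells FARSA, VARS, IARS and WARS lie low, HARS lies high and YARS lies within the range of the other groups.

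The 2 hatching classes also differed in depth and make-up. The PE-like cells had a median of 9.36 M recovered reads and 5680 genes at an FPKM of 1, against 12.8 M reads and 6940 genes in EPI-like cells, and APOA1 alone took a median of 6.26% of their summed FPKM. The 5 EPI-like cells in the same range of title numbers had a median of 8.67 M reads. Against these 5 cells the median difference was -1.43, 21 synthetases passed -1 (31.5% of all genes) and HARS passed 1 at 1.52 (18.5%). FARSA lay at -4.32, VARS at -4.19 and IARS at -3.86 there, while VARS2 (0.22) and WARS2 (0.12) were not lower. Among EPI-like cells, those numbered from 22 exceeded those up to 18 by 1.22 in VARS2 and 1.25 in NARS2. When each cell was thinned to 3 M reads, leaving out none, EARS2 had a read in 100% of EPI-like and 60.4% of PE-like cells (100% and 71.4% before thinning). PARS2 had one in 98.8% and 52.8% (100% and 71.4% before) and MARS2 in 69.5% and 38.5% (89.5% and 57.1% before).

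Other parts of the same machinery were lower in hatching PE-like cells too. The scaffold genes AIMP2 (-2.97), EEF1E1 (-2.29) and AIMP1 (-0.84) were lower, as were 15 of 17 mitochondrial factors (median -1.70, 13 past -1). Of all genes 65.1% were lower and 33.7% passed -1, with a median of -0.45. Of the 7 listed genes of cytosolic elongation, 7 were lower (median -1.02), among them EEF2K, the kinase of EEF2 (-1.39). MTO1 (-2.91), GFM2 (-2.83), GTPBP3 (-2.63) and TRNT1 (-2.22) had the largest differences among the mitochondrial factors. Of the 13 stress response regulators that passed the FPKM minimum, 13 were lower, where 65.1% of all genes were, among them EIF2B3 (-3.43) and ATF4 itself (-0.996). Against the 5 EPI-like cells with title numbers up to 18, 11 of the 13 were lower, ATF4 lay at -0.46, and PPP1R15B (0.54) and EIF2B4 (0.26) were higher. Of the other ATF4 targets past the FPKM minimum, 11 passed -1, led by PSAT1 (-4.60) and PHGDH (-4.08). Past 1 were 3, namely DDIT3 (2.60), the transporter subunit SLC3A2 (2.25) and SLC7A11 (1.24). Of all genes 33.7% passed -1 and 14.2% passed 1, the latter a share near that of the list. ASNS lay at -2.45.

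Synthetase levels co-varied weakly from cell to cell. Over the 528 pairs the median Spearman correlation was 0.04 in early, 0.06 in middle, 0.06 in late and 0.18 in hatching cells, which include both classes. Among the 19 EPI-like hatching cells it was 0.04. The highest value was that of CARS and GARS among middle cells (0.75, 39 cells), followed by EARS2 with GARS (0.69) and CARS with TARS (0.69). In hatching cells FARSA and IARS reached 0.73 (26 cells). Cells of a stage share library preparation and may share embryos, and the mean synthetase level of hatching cells had a correlation of 0.52 with the number of genes at an FPKM of 1, so these values are a description.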

How the data were processed

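Single inner cells of rhesus blastocysts were sequenced as 150-bp paired reads of PCR-amplified cDNA, per the labels' protocols. The authors deposited FPKM values of 16049 gene symbols in 161 cells. TopHat2 2.1.0, HTSeq, DESeq2 and FastQC are listed, without a role, per the submitters' processing notes. For the genome build, the annotation and the strand setting, nothing is stated: not given in the sources used here. Steps in the FPKM values gave whole reads for 13845 of 13857 genes with a value in at least 2 cells (relative tolerance 1e-09, absolute 1e-06), which set the depth. No 2 cells were identical. PCR reads carry no molecular identifiers.

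Levels are means over cells of log2(FPKM + 1), with a pseudocount of 1. Because each stage is 1 sample, no test was made. The planned look at promoters, proteins and the FARSA and FARSB pair was not made, since the sequences and FARSB were not at hand. Classes came from 1000 variable genes, 10 principal components and Ward clustering with 2 to 4 clusters, named from marker lists when at least 3 markers were raised. Doublets were not searched for, because each library is 1 picked cell. In each comparison the members detailed are up to 6 with the largest positive and up to 6 with the largest negative difference, plus up to 4 genes per related list by absolute difference and ATF4, ASNS, DDIT3, AIMP1, AIMP2 and EEF1E1; other genes were chosen after their values were seen. The members, the lists and these rules were chosen with earlier results of these data known. Gene symbols of all 33 members matched RefSeq (T2T-MMU8v2.0), which was used only for neighbouring genes. The alternatives were 2 other pseudocounts, 2 other filters, 2 scalings, 2 summaries, other cells and other classes. Scripts were tested on simulated data. Tables were made with pandas 2.3.3 under Python 3.11.15, classes with scikit-learn 1.9.0, intervals with scipy 1.17.1, levels with numpy 2.4.6 and plots with matplotlib 3.10.9.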

Additional observations from a re-analysis of the deposited data

How the results depend on the processing

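Of 342 values recomputed under other settings, 24 moved beyond the spread between cells or by over 1.5 times. A change of sign was looked for only where the main difference was at least 1 log2 unit, and none was found there. Among smaller differences for hatching minus early, HARS ran from -0.47 to 1.55 and RARS2 from -0.04 to 1.01. For hatching minus early, the number of synthetases past 1 log2 unit was 7, and 11 with a pseudocount of 0.1, 0 with a pseudocount of 10, 4 with medians over cells, 2 with the log2 of the mean FPKM, 17 among lower-numbered cells and 3 with hatching EPI-like cells only. The median over all synthetases was -0.24, and -0.88 among lower-numbered cells. The mitochondrial median ran from -1.63 to -0.35 over its alternatives, and that of the complex from -0.46 to 0.26. For PE-like minus EPI-like hatching cells, the median of -1.39 was -0.80 with a pseudocount of 10, -0.97 with median-of-ratios scaling and -0.72 with the log2 of the mean FPKM. That of the complex (-1.27) was -0.70 with median-of-ratios scaling and -0.71 with the log2 of the mean, and that of the other cytosolic genes (-0.73) was -0.14 with median-of-ratios scaling. The mitochondrial median (-2.21) was -3.02 and -0.99 with pseudocounts of 0.1 and 10, -3.15 with medians over cells and -0.997 with the log2 of the mean. For hatching minus late PE-like cells, the median of -1.59 was -0.78 with a pseudocount of 10, -1.13 with median-of-ratios scaling and -0.89 with the log2 of the mean. The spread here is the SD between cells, not between samples. The comparisons without the lowest cell of each stage, with EPI-like cells only and within title numbers up to 18 were chosen after seeing the data. No paired analysis was possible because the labels name no embryo that would tie a cell of 1 stage to a cell of another. The cause of these shifts was not tested.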

Other observations

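Genes that make and export transfer RNA did not follow the synthetases from early to middle cells. Of 26 such genes 12 were higher in middle cells (56.4% of all genes), with a median difference of -0.04 and XPOT alone past 1 (3.06%). From early to hatching cells 17 of 26 were lower (56.2% of all genes), 4 past -1 and 3 past 1, with a median of -0.54 against -0.12 for all genes. Of all genes 16.2% passed -1 and 11.3% passed 1, shares near those of the list. With EPI-like hatching cells alone 15 of 26 were lower, with a median of -0.16. POLR3K (-2.09), a subunit of RNA polymerase III, and POP4 (-1.72), a subunit of ribonuclease P, were among the lower ones. POLR3GL (2.06), an alternative polymerase subunit, and SSB (1.91), which binds new transcripts of that polymerase, were among the higher ones. In hatching PE-like cells 25 of 26 lay below the EPI-like level, where 65.1% of all genes did. Their median was -1.28, against -0.45 for all genes. SSB lay at -4.33, and BRF1, a polymerase III initiation factor, at 1.55.

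Factors that remove wrongly charged transfer RNA had 6 genes past the FPKM minimum, with a median difference of -0.84 between early and hatching cells (among them DTD2 at -1.42 and PTRH2 at -1.25). Of 7 genes of the MYC family, MYC was higher by 2.28 in middle than in early cells and its partner MAX differed by -0.49. MYCL1 differed by 0.20, MYCN by -0.09, MXI1 by -0.13, MXD1 by -0.25 and MNT by -0.44. Higher-numbered cells differed from lower-numbered ones in MYC by -2.10 within the middle stage and by -0.81 within the early stage. In hatching PE-like cells MYC lay at -5.81 and the antagonist MXI1 at 2.99 against EPI-like cells.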
